A study of Mus musculus with 18 samples.

Results

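Cholesterol and fatty acid synthesis are described here through 29 genes: the enzymes that build mevalonate, squalene, lanosterol and cholesterol, the SREBP control proteins, the sterol carrier Stard4, and 5 enzymes that make or modify fatty acids. The members were given as a list of gene symbols, and each probe set of the expression array whose platform symbol was one of them was read. Of the 29 genes, 28 had a probe set, with 65 probe sets in all among the 45037 non-control probe sets. No level of Acat2 is analysed here. Each member is given by its brightest probe set, and all 28 passed the filter on dim signals.

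The tissue was tibiae of CD1 mouse embryos, male and female, taken at E15.5 and kept in organ culture in minimal medium for 6 days. Treated cultures received C-type natriuretic peptide (CNP, 1e-06 M), a peptide that stimulates growth of endochondral bone, on days 1, 3 and 5; control cultures received the BSA/HCl vehicle, 1 mM as the labels give it. On day 6 the bones were cut into a resting/proliferating, a hypertrophic and a mineralized part, and the like parts of about 24 bones were pooled for RNA. The 6 groups (3 zones by 2 treatments) held 3 arrays each, numbered 2, 3 and 4, so that 6 cultures gave 18 arrays and the 3 zones of a culture came from the same pooled bones. The series' design calls the numbers independent trials.

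As background, animal cells make cholesterol from acetyl-CoA through mevalonate and squalene, and most genes of this route are switched on together by SREBP transcription factors. SREBPs are held in the endoplasmic reticulum by Scap and the Insig proteins while sterols are plentiful, and are cut and sent to the nucleus when sterols fall. SREBP-2, from Srebf2, favours cholesterol genes, and SREBP-1, from Srebf1, favours fatty acid genes. In humans, inherited loss of several late enzymes of the route, among them Nsdhl, Ebp and Sc5d, disturbs the skeleton, and growth plate cartilage itself has no blood vessels.

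Signals before normalization differed between arrays and were brought to a common distribution before testing. Array medians ran from 39.3 (CNP hypertrophic replicate 2) to 174.2 (vehicle mineralized replicate 4). All 6 genes of a hypertrophic chondrocyte list rose from the resting/proliferating to the hypertrophic zone (median log2 difference 2.41), the zone in which these genes are known to be expressed. Genes of other cell types were also higher in the mineralized pieces: 7 of 7 tested osteoclast genes, 6 of 7 macrophage genes and 5 of 5 endothelial genes rose there against the hypertrophic pieces. Actin has probe sets at both ends of its transcript, and their 3'/5' signal ratio, which rises as RNA degrades, was 3.38 ± 1.13 (SD, n = 6) in resting/proliferating, 2.62 ± 0.65 in hypertrophic and 1.73 ± 0.13 in mineralized arrays. The highest actin ratios in the resting/proliferating zone were those of CNP replicates 2 and 4 (4.76 and 4.85). The like ratio of Gapdh did not fall in this order. It ran from 1.263 to 1.927 in resting/proliferating, 1.3 to 1.732 in hypertrophic and 1.584 to 2.081 in mineralized arrays. In pieces of tissue, fewer cells of a type and less RNA per cell cannot be told apart.

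Most members fell from hypertrophic cartilage to the mineralized part, and more of them rose than fell from the resting/proliferating to the hypertrophic zone. From the hypertrophic to the mineralized zone 21 of the 28 members fell, 1 rose (Insig2) and 6 did not pass the test (limma adjusted p under 0.05 over 27022 probe sets). Of all probe sets tested, 21.3% fell and 19.6% rose in that comparison. The median difference of the members was -0.88 on the log2(signal + 16) scale, against -0.02 over all probe sets. In 19 members all 6 mineralized arrays lay below all 6 hypertrophic arrays, which 11.4% of the tested probe sets did. By role, 6 of 6 genes of the mevalonate arm fell, 10 of 11 of the squalene and sterol arm, 1 of 5 SREBP control genes, the sterol carrier, and 3 of 5 fatty acid genes. Within single cultures the median member difference was -0.86, -1.14 and -0.82 in vehicle replicates 2, 3 and 4, and -0.75, -0.80 and -0.71 in the CNP replicates of the same numbers.

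**Figure D1:**
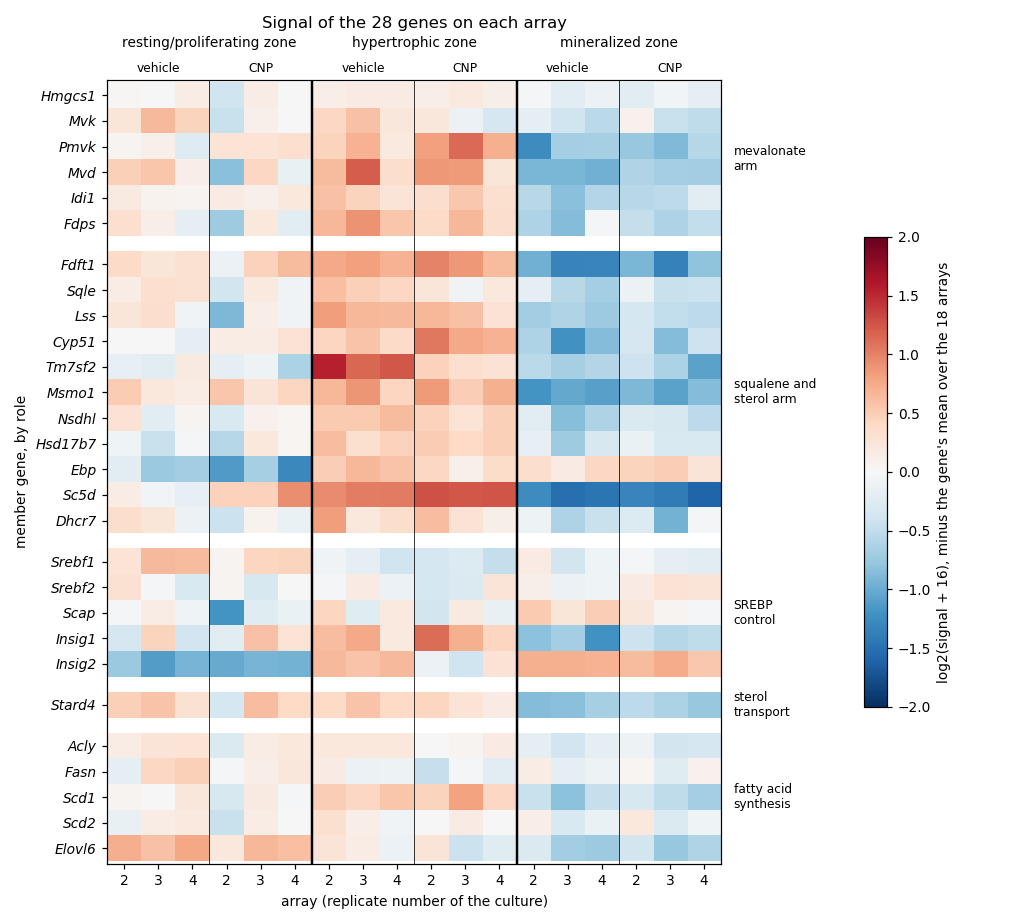
Heat map of the 28 genes (rows, grouped by role) on the 18 arrays (columns, grouped by zone and treatment, labelled with the replicate number). Colour is log2(signal + 16) minus the gene's mean over the 18 arrays, red above and blue below that mean; most sterol rows are red in the 6 hypertrophic and blue in the 6 mineralized columns, while Insig2 stays high in the mineralized columns.

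Chondrocyte genes moved in the same comparison. Of 8 genes of a cartilage list 7 fell from the hypertrophic to the mineralized zone, with a median log2 difference of -1.33, and the summed signal of the list was 56860 to 65650 in hypertrophic and 21530 to 31600 in mineralized arrays. The largest falls were those of the matrix proteins Matn1 (-3.68), Hapln1 (-2.75) and Acan (-2.09) and of the transcription factor Sox9 (-1.55). The summed signal of 8 osteoclast genes ran from 2255 to 7338 in hypertrophic and from 27270 to 31830 in mineralized arrays, that of 8 macrophage genes from 1872 to 2622 and from 11320 to 13200, and that of 6 endothelial genes from 579.3 to 641.5 and from 3462 to 3989. The part of this change in cell makeup in the fall of the sterol genes was not tested.

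The mevalonate arm turns acetyl-CoA into farnesyl diphosphate. Mvd, the decarboxylase of this arm, had signals from 303.1 to 605.8 (median 433.8) in the 6 hypertrophic arrays and from 122.0 to 161.2 (median 138.6) in the 6 mineralized arrays. The ranges were far apart, and the fall was 2.80-fold (log2 difference -1.49 ± 0.17, SE, 6 cultures; limma adjusted p = 5.98e-06). Pmvk, the kinase that acts just before it, fell from a range of 881.6 to 1703 (median 1255) to a range of 308.5 to 511.6 (median 457.0), a log2 difference of -1.47 ± 0.13 (limma adjusted p = 2.4e-07). Fdps, which makes farnesyl diphosphate, fell by 1.11 ± 0.16 and Idi1, the isopentenyl diphosphate isomerase, by 0.96 ± 0.08 on the same scale, again with no overlap of the 6 arrays of each zone. Hmgcs1, which starts the route with HMG-CoA, was the exception in size: it fell by 0.29 ± 0.06 (limma adjusted p = 0.00133), from a hypertrophic range of 7336 to 7702. Mvk, the first kinase, fell by 0.49 ± 0.16 (adjusted p = 0.0191), but its hypertrophic range of 112.4 to 225.7 overlapped the mineralized range of 94.8 to 155.0.

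The squalene and sterol arm held the largest changes. Sc5d, the desaturase that acts near the end of cholesterol synthesis, had signals of 1865 to 2341 (median 2142) in hypertrophic and 307.1 to 390.7 (median 346.0) in mineralized arrays. Every mineralized array was below every hypertrophic one by a wide margin, and the fall was 5.87-fold (log2 difference -2.55 ± 0.11; limma adjusted p = 1.19e-10). The other probe sets of Sc5d fell less, by 0.81 ± 0.21 (adjusted p = 0.00566) in the first, while the second differed by -0.08 (adjusted p = 0.685). Fdft1, the squalene synthase that commits the route to sterols, fell 3.75-fold, from a range of 2350 to 3008 (median 2611) to a range of 578.7 to 852.1 (median 680.7), with a log2 difference of -1.91 ± 0.13 (limma adjusted p = 1.92e-08). Its second tested probe set fell by 1.63 ± 0.13. Msmo1, the oxidase that removes methyl groups from lanosterol products, fell 3.24-fold, from a range of 3433 to 4738 (median 4143) to a range of 1104 to 1391 (median 1234; log2 difference -1.70 ± 0.08, adjusted p = 4.55e-10). The second, much dimmer probe set of Msmo1 differed by -0.43 ± 0.17 and did not pass (adjusted p = 0.0548).

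Cyp51, the lanosterol demethylase, fell by 1.37 ± 0.11, and Tm7sf2, a sterol reductase, by 1.49 ± 0.12. Lss, the lanosterol synthase, fell by 1.18 ± 0.14, while of its dimmer probe sets the first fell by 0.47 ± 0.12 and the second differed by 0.01 (adjusted p = 0.984). Nsdhl and Hsd17b7, which act on the same carbon of the sterol ring, fell by 0.95 ± 0.10 and 0.79 ± 0.12. Sqle, the squalene epoxidase, fell by 0.71 ± 0.12 and Dhcr7, the reductase that can close the route, by 0.80 ± 0.16. In all of these the 6 mineralized arrays lay below the 6 hypertrophic ones. Ebp, the sterol isomerase that precedes Sc5d in the route, stood apart: its signals were 1648 to 2448 (median 2115) in hypertrophic and 1729 to 2171 (median 2020) in mineralized arrays. These ranges overlapped almost whole, and its log2 difference was -0.08 ± 0.12 (limma adjusted p = 0.654).

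Among the SREBP control genes Insig1 fell, while its paralog Insig2 rose in the fit of both treatments but did not pass in vehicle cultures alone. Its mean signals in the hypertrophic and mineralized zones were 5333 and 5653 in vehicle, and 3353 and 5417 with CNP. Both encode anchors that keep Scap and SREBP in the endoplasmic reticulum, and Insig1 is itself a known SREBP target. Insig1 signals were 464.1 to 893.2 (median 650.5) in hypertrophic and 164.6 to 300.2 (median 256.2) in mineralized arrays. The 2 ranges did not overlap, and the fall was 2.53-fold (log2 difference -1.34 ± 0.15; limma adjusted p = 4.44e-06). Insig2 signals were 2636 to 5417 (median 4693) in hypertrophic and 5066 to 5778 (median 5629) in mineralized arrays. The ranges overlapped, since the vehicle hypertrophic arrays were already near the mineralized level, and the rise was 0.40 ± 0.09 (adjusted p = 0.00242); after median centring it was -0.02 (adjusted p = 0.939). Srebf1, Srebf2 and Scap, the SREBP escort, differed by 0.17 ± 0.12, 0.17 ± 0.12 and 0.24 ± 0.16, and none of these passed the test (adjusted p from 0.25 to 0.319). The second, dimmer probe set of Srebf2 fell by 0.65 ± 0.22 (adjusted p = 0.0284), so the 2 probe sets of that gene disagree.

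Stard4, a protein that carries cholesterol between membranes, fell by 1.09 ± 0.14 (limma adjusted p = 1.11e-05), from a range of 1118 to 1473 (median 1313) to a range of 535.2 to 684.9 (median 600.2). Of the fatty acid genes, Scd1, a stearoyl-CoA desaturase, fell by 1.06 ± 0.09 (adjusted p = 1.38e-07), from a range of 3898 to 5125 (median 4067) to a range of 1650 to 2348 (median 2089). Its paralog Scd2 differed by -0.17 ± 0.12 (adjusted p = 0.287) with its brightest probe set, whose ranges of 5984 to 7820 and 5074 to 7280 overlapped. A dimmer Scd2 probe set fell by 0.79 ± 0.20 (adjusted p = 0.00549). Elovl6, the elongase that makes long-chain acids from palmitate, fell by 0.56 ± 0.13 and Acly, which supplies cytosolic acetyl-CoA, by 0.41 ± 0.08. Fasn, the fatty acid synthase, differed by 0.09 ± 0.14 (adjusted p = 0.663).

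**Figure D2:**
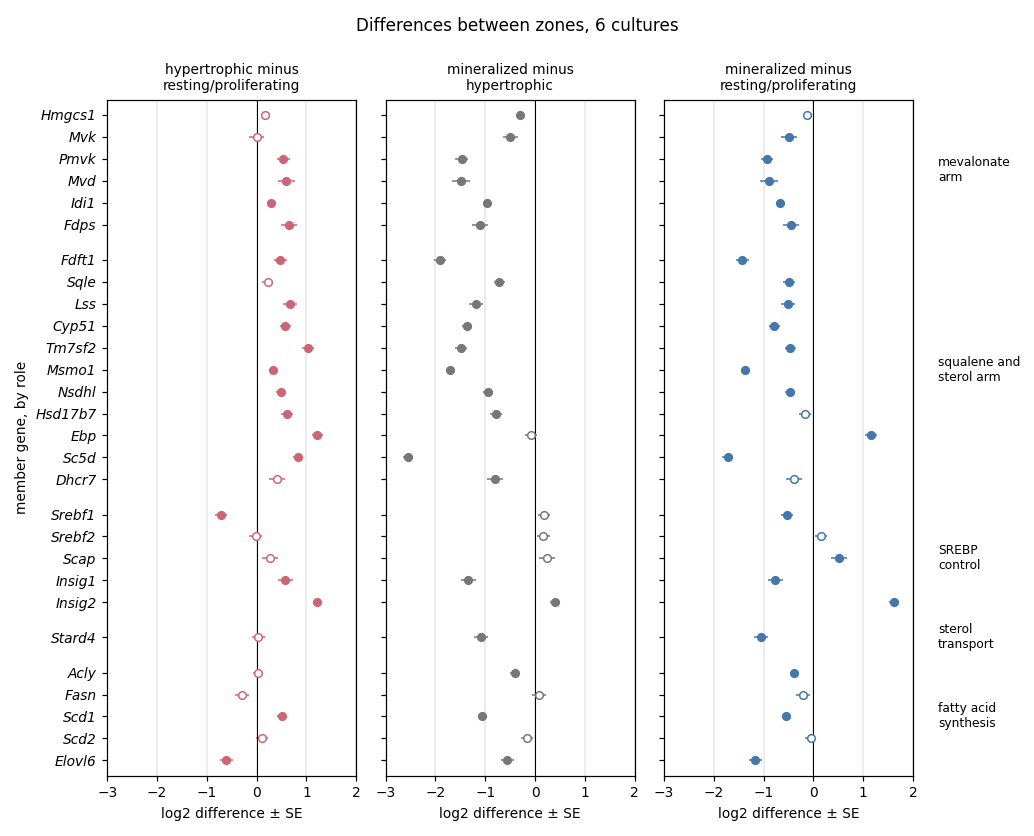
Log2 difference between zones for each of the 28 genes, from the fit of 18 arrays with the culture as a block (x axis, log2 units; points are estimates, bars are SE, filled points passed limma's adjusted p under 0.05, open points did not). In the middle panel 21 genes sit filled below 0, Sc5d lowest at -2.55, and in the left panel 16 sit filled above 0.

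Promoters of the sterol members with the largest called zone change, and of the fatty acid member with the largest, are shown because each of these genes fell from the hypertrophic to the mineralized zone. Of the 29 members 23 had a promoter entry in RefSeq (GRCm38.p6), Acat2 among them, so that 22 had both a probe set and an entry, and Fdft1, Fdps, Sqle, Stard4, Scd1 and Scd2 had none. Each line gives the 250 bases before the annotated start, 5' to 3' on the gene's own strand, with capitals for matches, on either strand, to CCAAT, to the GC box spelled GGGCGG and to the sterol element core spelled TCACNCCAC. Sc5d lies on the minus strand at chr9:42264301-42264550, Msmo1 on the minus strand at chr8:64733579-64733828, Tm7sf2 on the minus strand at chr19:6067851-6068100, Mvd on the minus strand at chr8:122443423-122443672 and Elovl6 on the plus strand at chr3:129532136-129532385.
Sc5d: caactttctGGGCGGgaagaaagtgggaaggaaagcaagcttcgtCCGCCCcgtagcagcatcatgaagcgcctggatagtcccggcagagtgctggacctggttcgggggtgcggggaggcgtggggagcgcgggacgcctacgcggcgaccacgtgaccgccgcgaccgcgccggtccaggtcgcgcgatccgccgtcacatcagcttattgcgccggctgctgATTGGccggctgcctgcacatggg
Msmo1: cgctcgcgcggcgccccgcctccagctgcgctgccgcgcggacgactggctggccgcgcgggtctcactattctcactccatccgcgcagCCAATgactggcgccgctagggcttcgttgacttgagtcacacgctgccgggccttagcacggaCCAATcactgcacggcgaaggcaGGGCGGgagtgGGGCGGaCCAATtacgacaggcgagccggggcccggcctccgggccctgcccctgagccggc
Tm7sf2: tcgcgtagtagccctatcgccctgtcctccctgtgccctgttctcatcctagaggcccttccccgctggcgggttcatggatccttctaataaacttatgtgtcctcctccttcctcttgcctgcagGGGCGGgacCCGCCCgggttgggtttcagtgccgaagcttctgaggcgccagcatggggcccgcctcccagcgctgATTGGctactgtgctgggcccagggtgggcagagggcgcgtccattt
Mvd: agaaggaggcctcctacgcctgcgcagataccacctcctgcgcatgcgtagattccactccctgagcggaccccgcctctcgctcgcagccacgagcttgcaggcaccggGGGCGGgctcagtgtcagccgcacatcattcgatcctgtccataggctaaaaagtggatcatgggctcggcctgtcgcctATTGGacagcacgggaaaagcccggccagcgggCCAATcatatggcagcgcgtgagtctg
Elovl6: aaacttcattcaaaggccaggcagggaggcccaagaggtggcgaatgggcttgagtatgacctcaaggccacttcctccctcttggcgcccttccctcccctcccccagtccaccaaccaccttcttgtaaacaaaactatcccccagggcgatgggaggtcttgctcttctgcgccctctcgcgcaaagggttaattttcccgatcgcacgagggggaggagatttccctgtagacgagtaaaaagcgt

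The 4 sterol promoters each held CCAAT and also the GC box GGGCGG, and that of Elovl6 held neither. Msmo1 held CCAAT 3 times, Mvd 2 times and Sc5d and Tm7sf2 once each, with some matches written as ATTGG because the motif lies on the other strand. Over the 23 members with an entry, 19 had CCAAT in some promoter (82.6%, against 37.5% of 27025 genes) and 20 had GGGCGG (87.0%, against 35.4%). CCAAT is the box bound by NF-Y and GGGCGG the GC box bound by SP1-family factors, both known partners of SREBP at sterol genes. The sterol regulatory element core, searched as TCACCCCAC and as TCACNCCAC on both strands, was found in 1 member, Hmgcs1, for either spelling (4.35% of members, against 0.555% and 1.22% of genes), 129 to 137 bases before the start. A match is a description of letters, not of a bound site, and the absence of one says nothing about SREBP.

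From the resting/proliferating to the hypertrophic zone the direction was the reverse for most sterol genes, with smaller steps. Of the 28 members 16 rose and 2 fell (limma adjusted p under 0.05), where 16.8% of all probe sets rose and 16.8% fell, and the median member difference was 0.44 against -0.02. Of 6 mevalonate genes 4 rose, and of 11 genes of the squalene and sterol arm 9 rose. In 9 members all 6 hypertrophic arrays lay above all 6 resting/proliferating arrays, which 7.11% of the tested probe sets did. The hypertrophic arrays here also entered the comparison with the mineralized zone, so the rise and the later fall are not independent of each other. Over all 57 tested probe sets of the members, 28 rose and 4 fell in this comparison, and 3 rose and 42 fell from the hypertrophic to the mineralized zone.

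Ebp rose most. Its signals were 618.6 to 1329 (median 930.3) in resting/proliferating and 1648 to 2448 (median 2115) in hypertrophic arrays, without overlap, a 2.33-fold rise (log2 difference 1.22 ± 0.12; limma adjusted p = 1.32e-06). Insig2 rose 2.33-fold as well, from a range of 1584 to 2064 (median 1805) to a range of 2636 to 5417 (median 4693), with a log2 difference of 1.22 ± 0.09 (adjusted p = 8.9e-08). All 3 of its probe sets rose, by 1.22 to 1.48. Tm7sf2 rose 2.04-fold (1.03 ± 0.12, adjusted p = 5.68e-06), from a range of 259.8 to 469.1 (median 364.5) to a range of 508.8 to 1247 (median 754.0). The wide hypertrophic range of Tm7sf2 and Insig2 separated by treatment (vehicle arrays high, CNP arrays low).

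Sc5d rose by 0.83 ± 0.11 (limma adjusted p = 1.97e-05), yet its second probe set fell by 0.57 ± 0.14 (adjusted p = 0.0046), so its direction in this comparison depends on the probe set. Lss rose by 0.67 ± 0.14, and its dimmer probe sets differed by -0.24 and -0.26 without passing the test. Fdps rose by 0.66 ± 0.16, Hsd17b7 by 0.61 ± 0.12, Mvd by 0.60 ± 0.17, Cyp51 by 0.58 ± 0.11, Insig1 by 0.57 ± 0.15 and Pmvk by 0.54 ± 0.13. Several of these calls were lost under alternatives: without replicate 2 Insig1 was at 0.30 (adjusted p = 0.132) and Mvd at 0.43 (0.09), without replicate 3 Pmvk was at 0.43 (0.0776), and with the probe sets of a gene averaged Cyp51 was at 0.32 (0.061), Sc5d at 0.15 (0.396) and Lss at 0.05 (0.796). The median member difference of the culture of CNP replicate 2 was 0.77, against 0.23 to 0.40 in the other 5 cultures. Scd1 was the fatty acid gene that rose, by 0.51 ± 0.09. The 2 members that fell act on the fatty acid side: Srebf1 fell by 0.71 ± 0.12 (adjusted p = 0.00035), with all 6 hypertrophic arrays (617.5 to 827.6) below all 6 resting/proliferating ones (904.4 to 1369), and Elovl6 by 0.61 ± 0.13 (adjusted p = 0.00182). Among the 10 members that did not pass were Hmgcs1 (0.16 ± 0.06), Sqle (0.22 ± 0.12), Dhcr7 (0.40 ± 0.16), Fasn (-0.30 ± 0.14), Acly (0.02 ± 0.08) and Stard4 (0.03 ± 0.14). Some other tested probe sets of such members passed in the same direction: 2 of 4 for Hmgcs1, 1 of 2 for Stard4 and 1 of 2 for Scd2. The other tested probe set of Srebf2 passed in the direction opposite to its brightest one.

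Lists of cell division and cell type genes moved as well in these pieces. Of 12 genes of a cell division list 11 fell from the resting/proliferating to the hypertrophic zone and 11 rose from the hypertrophic to the mineralized zone, with summed signals of 14410 to 19530, 6690 to 10860 and 13040 to 15830 in the 3 zones. Between the first of these zones and the hypertrophic one, 6 of 7 osteoclast and 5 of 6 osteoblast genes rose, and 5 of 7 perichondrium and fibroblast genes and 3 of 5 endothelial genes fell. The part of these lists in the levels of the members was not tested. The actin ratio also fell from zone to zone, while that of Gapdh did not, as given above. The part of RNA quality was not tested.

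From the resting/proliferating to the mineralized zone 19 members fell, 3 rose and 6 did not pass, where 24.6% of probe sets fell and 22.3% rose. Hmgcs1 did not pass with its brightest probe set, while 3 of its 4 other tested probe sets passed as lower. The median member difference was -0.49, against -0.04 over all probe sets. Sc5d fell most, 3.30-fold (-1.72 ± 0.11, limma adjusted p = 4.01e-09), followed by Fdft1 (-1.43 ± 0.13), Msmo1 (-1.37 ± 0.08), Elovl6 (-1.17 ± 0.13) and Stard4 (-1.05 ± 0.14). The dimmer probe set of Msmo1 differed by 0.08 ± 0.17 here (adjusted p = 0.722). In each of these 5 genes all 6 mineralized arrays were below all 6 resting/proliferating ones. The members that rose were Insig2, 3.07-fold (1.62 ± 0.09, adjusted p = 1.57e-09), Ebp, 2.21-fold (1.15 ± 0.12, adjusted p = 1.24e-06), and Scap (0.51 ± 0.16, adjusted p = 0.0164). Without replicate 2 Scap was at 0.27 (adjusted p = 0.19), and without any 1 of 3 single arrays of that number it was at 0.35 to 0.45 and did not pass. Insig2 and Ebp were above without overlap, and Scap overlapped. The share of all probe sets without overlap was not computed for this comparison. The culture of CNP replicate 2 differed from the others: its median member difference was 0.10, with 11 members lower, against -0.47 to -0.88 and 23 to 25 members lower in the other 5 cultures. The resting/proliferating array of that culture has the actin ratio of 4.76 given above and an instrument log that records an aborted step, as do the logs of the 3 vehicle arrays of replicate 2; the part of these in the difference was not tested.

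The zones were also compared within each treatment. In vehicle cultures 21 members fell from the hypertrophic to the mineralized zone and 0 rose, where 12.1% of probe sets fell, and in CNP cultures 19 fell, where 16.7% did, and 1 rose (Insig2), where 15.9% did. At an unadjusted p under 0.05 the vehicle comparison also held 21 members, and the share of all probe sets at that threshold was not computed. From the resting/proliferating to the hypertrophic zone 9 members rose and 2 fell in vehicle, where 9.85% and 8.75% of probe sets did, and 12 rose and 2 fell with CNP, where 12.4% and 12.5% did. From the resting/proliferating to the mineralized zone 18 members fell in vehicle, where 15.7% of probe sets did, and 10 with CNP, where 18.8% did. Without the resting/proliferating array of CNP replicate 2 that last count was 18 fallen, with 20 of 28 called in all. Over the 28 members the zone differences of vehicle and CNP cultures, which share no array, correlated with r = 0.87, 0.94 and 0.93 for the 3 zone comparisons, against 0.77, 0.86 and 0.89 over all probe sets tested; members are not independent points.

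Few members passed the test for CNP within a zone. In the resting/proliferating zone 0 of 28 members passed the test (limma adjusted p under 0.05), where 0.0259% of probe sets did; 7 members had an unadjusted p under 0.05. In the mineralized zone 0 members passed, where 0.0037% of probe sets did, and 1 had an unadjusted p under 0.05. For the mean of the 3 zones 0 members passed, where 0.0148% did, and 9 had an unadjusted p under 0.05. The percentages are for the adjusted threshold. The share of all probe sets at the unadjusted threshold was not computed, so the unadjusted counts cannot be set against it. The median member difference was -0.15, -0.13 and 0.09 in the resting/proliferating, hypertrophic and mineralized zones, against 1e-04, -0.01 and -0.004 over all probe sets. By pairs of the same number, the resting/proliferating median was -0.435, 0.056 and -0.024 in replicates 2, 3 and 4. Within each of the other zones the pairs shared a sign. The arrays of the 3 zone comparisons are separate, but the zones of a culture come from the same bones.

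In the hypertrophic zone 2 members fell with CNP and 0 rose, where 1.1% of probe sets fell and 0.522% rose. Tm7sf2 had signals of 1247, 933.0 and 1002 in vehicle replicates 2, 3 and 4, and of 574.9, 528.6 and 508.8 in the CNP replicates of the same numbers. All 3 CNP arrays lay below all 3 vehicle arrays, and the fall was 1.93-fold (log2 difference -0.95 ± 0.19, SE, 3 arrays a group; limma adjusted p = 0.013). Insig2 had signals of 5417, 5166 and 5417 in vehicle and of 3204, 2636 and 4220 in CNP arrays. Again the groups did not overlap, with a wider spread under CNP, and the fall was 1.62-fold (-0.69 ± 0.13, adjusted p = 0.00773). The share of all probe sets whose 3 CNP and 3 vehicle arrays did not overlap was not computed. The 3 probe sets of Insig2 fell by 0.67, 0.69 and 0.70. On the CNP hypertrophic arrays both genes lay between their vehicle levels in the resting/proliferating zone (366.1, 353.4 and 469.1 for Tm7sf2, and 2064, 1584 and 1815 for Insig2) and in the vehicle hypertrophic zone.

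When single hypertrophic arrays were left out, Insig2 kept its call each time. Tm7sf2 lost its call without CNP hypertrophic replicate 3 (-0.94, limma adjusted p = 0.0532) or vehicle hypertrophic replicate 2 (-0.83, 0.0861). Over the 36 alternatives the call held in 27 for Tm7sf2 and in 28 for Insig2. Many of these alternatives left all hypertrophic arrays in place and could hardly move the differences, so the counts overstate how firm the calls are. The fit within hybridization day 2 repeats the one without replicate 3, which was hybridized on day 1. When all arrays of a replicate number were left out, most calls were lost, and Tm7sf2 moved less in size than Insig2. For Tm7sf2 the difference was -0.88, -1.003 and -0.96 without all arrays of replicate 2, 3 or 4 (limma adjusted p = 0.181, 0.11 and 0.107). For Insig2 it was -0.66, -0.54 and -0.88 (0.169, 0.101 and 0.036). With the fluidics run as a block the differences were -0.86 and -0.66 (0.0704 and 0.0718). The labels name no such run: arrays with close hybridization times in the instrument logs were taken to share it. Without normalization Tm7sf2 was at -1.32 and Insig2 at -0.86 (limma adjusted p = 0.206 and 0.558). After median centring they were at -0.89 and -0.42 (0.033 and 0.386). Both genes kept the lower sign under all 36 alternatives. In the same pieces some genes of other cell types moved with CNP: of 7 genes of a perichondrium and fibroblast list 4 fell (Col3a1, Dcn, Postn and Tnc), and of 7 osteoclast genes 1 fell (Mmp9, by 1.17). Of 7 macrophage genes 1 fell (Cd68, by 1.07), while the median of that list was 0.13 and its summed signal was 2013 to 2622 in vehicle and 1872 to 2497 in CNP arrays. Of 4 muscle genes Tnnt3 rose by 1.82 and Tnni1 fell by 1.89. The summed signal of the perichondrium and fibroblast list was 15480 to 17240 in vehicle and 9769 to 11770 in CNP hypertrophic arrays, and that of the osteoclast list was 6510 to 7338 and 2255 to 4345. The actin ratio was 2.20, 2.37 and 2.28 in vehicle and 3.93, 2.54 and 2.39 in CNP arrays. Array medians before normalization were 98.9, 109.9 and 76.9 in vehicle and 39.3, 89.7 and 93.9 in CNP replicates 2, 3 and 4. Their part in the 2 falls was not tested.

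Whether CNP acted differently between zones was tested directly in the members. For the hypertrophic minus the resting/proliferating response 0 members passed, where 0.167% of probe sets did. The smallest adjusted p was that of Insig2 (-0.66 ± 0.18, limma adjusted p = 0.212), which passed without the hypertrophic array of CNP replicate 4 (-0.87, adjusted p = 0.0391), followed by Tm7sf2 (-0.71 ± 0.23, adjusted p = 0.299). For the mineralized minus the hypertrophic response 0 members passed, where 0.0666% did, with Tm7sf2 at 0.84 ± 0.23 (adjusted p = 0.275) and Insig2 at 0.63 ± 0.18 (adjusted p = 0.318). For the mineralized minus the resting/proliferating response 0 members passed, where 0% did. At an unadjusted p under 0.05 the 3 tests held 2, 3 and 4 members, and the share of all probe sets at that threshold was not computed.

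In the resting/proliferating zone the member with the smallest p was Sc5d, with signals of 1069, 920.3 and 859.3 in vehicle and 1335, 1330 and 1840 in CNP arrays. The groups did not overlap, but the difference of 0.64 ± 0.14 did not pass (limma adjusted p = 0.102), and the share of all probe sets without overlap was not computed. Under the 36 alternatives the difference of Sc5d ran from 0.14 to 0.81, and 1 of its 2 other tested probe sets had the opposite sign. Ebp had signals of 1329, 915.9 and 944.7 in vehicle and 691.9, 967.4 and 618.6 in CNP arrays, which overlapped, for a difference of -0.48 ± 0.17 (adjusted p = 0.258). Without the array of CNP replicate 3 both passed, Sc5d at 0.72 (adjusted p = 0.0183) and Ebp at -0.66 (adjusted p = 0.0285). Mvk differed by -0.57 ± 0.21 (adjusted p = 0.29) and Sqle by -0.35 ± 0.15 (adjusted p = 0.377). In the mineralized zone Cyp51 had the smallest p (0.37 ± 0.16, adjusted p = 1), before Idi1 (0.23 ± 0.12), Insig1 (0.41 ± 0.25) and Srebf2 (0.27 ± 0.19), all with an adjusted p of 1. For the mean of the zones the smallest p-values were those of Insig2 (-0.26 ± 0.07, adjusted p = 0.239), Cyp51 (0.33 ± 0.10, 0.276), Tm7sf2 (-0.43 ± 0.14, 0.291) and Sc5d (0.29 ± 0.09, 0.294).

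**Figure D3:**
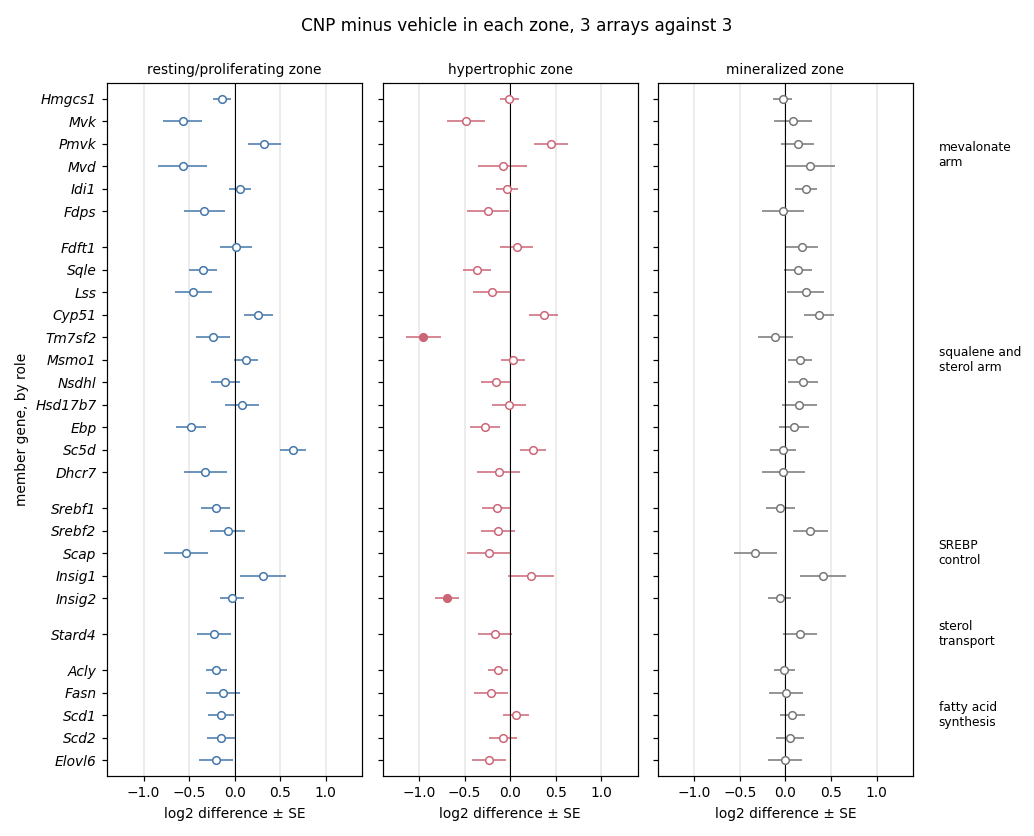
Log2 difference of CNP minus vehicle for each of the 28 genes in the 3 zones (x axis, log2 units; points are estimates from 3 arrays a group, bars are SE, filled points passed limma's adjusted p under 0.05). Tm7sf2 (-0.95) and Insig2 (-0.69) in the hypertrophic zone are the filled points.

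**Figure D4:**
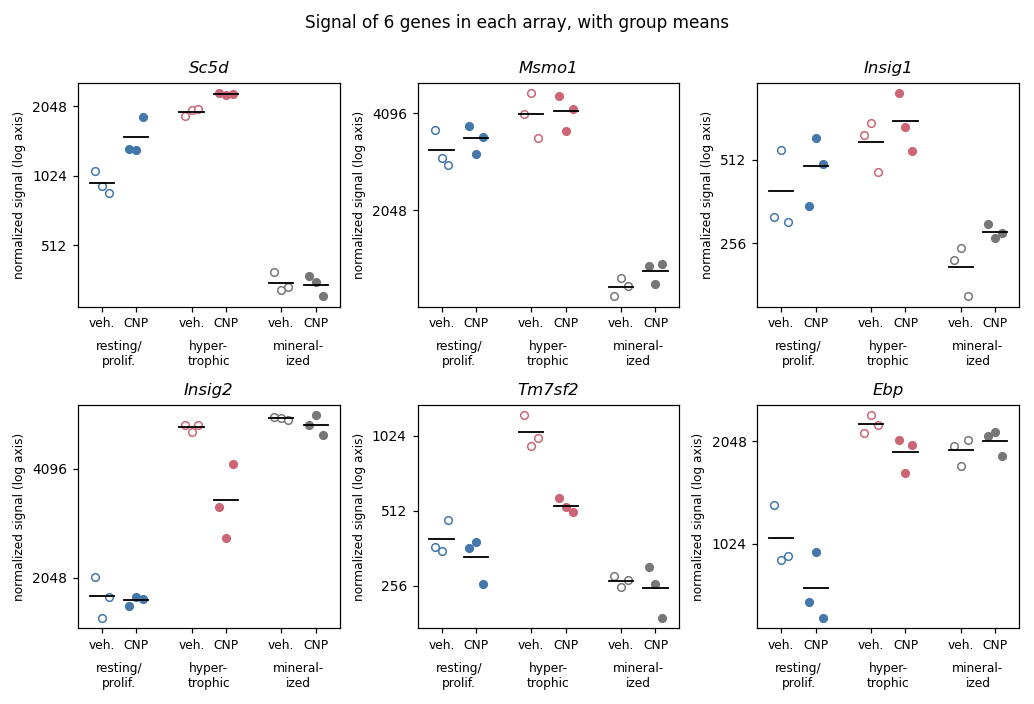
Normalized signal of 6 genes on every array (y axis, log scale, a separate scale for each gene; open points vehicle, filled points CNP, black lines the mean of 3 arrays), by zone and treatment. Sc5d, Msmo1 and Insig1 are lowest in the mineralized zone, Insig2 and Ebp stay high there, and Insig2 and Tm7sf2 are lower with CNP in the hypertrophic zone.

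Other genes of the route and its surroundings were read from lists of related genes. Of 3 further genes of the mevalonate and sterol route and its branches, Ggps1, which makes geranylgeranyl diphosphate, fell from the hypertrophic to the mineralized zone (-0.51), Cyp39a1, an oxysterol hydroxylase, rose (0.69), and Acat1, the mitochondrial thiolase, did not pass. All 3 fell from the resting/proliferating to the mineralized zone, and Cyp39a1 (-1.69) and Acat1 (-0.39) fell already from the resting/proliferating to the hypertrophic zone. Of 7 further SREBP processing genes Erlin1 (-0.54) and Rnf139 (-0.57) fell and the protease gene Mbtps1 rose (0.55) from the hypertrophic to the mineralized zone. Of all probe sets 21.3% fell and 19.6% rose there.

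Of 12 tested genes of cholesterol uptake and export, 6 rose from the hypertrophic to the mineralized zone, where 19.6% of all probe sets did, and 6 did not pass. Those that rose were led by Apoe (3.07), the lipoprotein apolipoprotein, Abcg1 (1.12) and Abca1 (1.06), both cholesterol exporters, and Lrp1 (0.59), a lipoprotein receptor. Apoe and Abca1 are also known products of macrophages, whose marker genes rose in the same pieces as given above. The part of macrophages in these rises was not tested. From the resting/proliferating to the hypertrophic zone Apoe fell by 3.40, while Abca1 (0.60), Scarb1 (0.50) and Npc1 (0.39) rose. The summed macrophage signal was 1241 to 2664 in resting/proliferating and 1872 to 2622 in hypertrophic arrays.

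Of 17 further fatty acid genes 9 fell and 3 rose from the hypertrophic to the mineralized zone, where 21.3% and 19.6% of all probe sets did. The largest falls were those of Me1 (-1.75), malic enzyme, which supplies NADPH, Fads2 (-1.16), a desaturase, and Lpin1 (-0.91), a phosphatidate phosphatase; the largest rise was that of Mid1ip1 (1.01), a regulator of acetyl-CoA carboxylase. Acss2, which makes acetyl-CoA from acetate, fell by 0.87. From the resting/proliferating to the hypertrophic zone 6 rose, led by Hacd2 (1.07), and 2 fell, where 16.8% of all probe sets went each way. Of the 2 tested adipocyte genes both rose in the mineralized zone, Fabp4 by 3.36 and Cebpa by 2.35, and the summed signal of 6 adipocyte genes was 386.8 to 808.0 in hypertrophic and 5590 to 6564 in mineralized arrays. None of the tested genes of these 4 lists passed limma's threshold with CNP in any zone.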

How the data were processed

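RNA was measured on 18 one-colour Affymetrix MOE430_2 arrays. In the deposited table each probe set has an intensity on a linear scale (highest value 20519). Per the series' design the submitters worked in GeneSpring 7.2. Which software summarised the probes is not given in these sources, and the trimmed mean of the deposited intensity ran from 158 to 514 over arrays. From 45101 probe sets 64 controls were left out, intensities were quantile-normalized, 16 was added, and log2 was taken. Probe sets in the lowest 40% by mean log2 value (signal under 63.5) were left out, which left 27022 tested. A fold on this scale understates changes of dim genes, and the number of arrays limits the precision.

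Titles gave groups and replicate numbers. For vehicle replicate 4 of the resting/proliferating zone the treatment field says CNP, against its title, and an alternative placed it there. No 2 arrays held identical values (highest correlation 0.975). Nothing beyond the design's wording says that the trials were separate litters.

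limma 3.58.1 in R 4.3.3 (lmFit, eBayes with trend, two-sided) was fitted over all probe sets tested, with Benjamini-Hochberg adjustment. CNP was compared with vehicle within each zone in a fit of all 18 arrays, and for the zone mean on 6 culture means. Zones and differences of the CNP response were fitted with the culture as a block. Errors are standard errors unless named SD. The fits were tested on simulated data with known changes. Arrays of the same number deviated together in the resting/proliferating zone (r = 0.187, 0.378 and 0.154) and in the culture means (0.173, 0.337 and 0.213), but not in every pair of the hypertrophic (-0.018, 0.091 and 0.123) or mineralized zone (0.137, 0.118 and 0.062). Those numbers also share hybridization days. With the number as a block no call of a member changed.

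Symbols came from the platform annotation: 34945 probe sets had 1 symbol, 932 several and 9160 none, and 34741 matched the gene table through their identifier. The members and the gene lists were chosen with earlier results of these data known. Full statistics went to at most 12 members past the threshold per comparison, by size of change, or to the 4 with the smallest p where none passed; other genes of a list were named up to 4 per comparison. For the hypertrophic against the mineralized zone Ebp, Srebf1, Srebf2, Scap, Fasn and Scd2 are given although they did not pass there. The 6 genes drawn array by array were chosen after their values were seen. Motif counts and figures used Python 3.11.15, pandas 2.3.3 and matplotlib 3.10.9.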

Additional observations from a re-analysis of the deposited data

How the results depend on the processing

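From the hypertrophic to the mineralized zone 18 to 23 members were called under all 35 alternatives, and 14 of the 22 called members kept their call and sign in each of them. From resting/proliferating to hypertrophic, 4 of 18 did (Ebp, Insig2, Scd1 and Srebf1), and from resting/proliferating to mineralized 7 of 22. Over the 76 member results 2447 of 2610 alternatives left the call and direction as they were, 153 ended a call, 2 made one and 8 turned the sign. The alternatives overlap, and some leave the arrays of a comparison unchanged, so they are not separate tests.

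Without normalization the median of all probe sets moved by 0.44 from the hypertrophic to the mineralized zone and 10.6% of calls were lower instead of 52.1%; the members' median was then -0.53, 14 fell, and Srebf1, Srebf2, Scap and Insig2 were called higher. Under that setting the count of called members was 0 for CNP in the hypertrophic zone; 9 for hypertrophic minus resting/proliferating and 9 for mineralized minus resting/proliferating; 4, 7 and 5 for the 3 zone comparisons in vehicle and 2, 7 and 5 with CNP. The share of lower calls over all probe sets went from 52.4% to 13.3% for mineralized minus resting/proliferating (members' median -0.11), from 47% to 25.5%, 51% to 11.2% and 50.9% to 6.66% for hypertrophic minus resting/proliferating, mineralized minus hypertrophic and mineralized minus resting/proliferating in vehicle, from 50.2% to 66.3%, 51.1% to 13.8% and 51.1% to 27.5% for the same with CNP, and from 67.8% to 90.4% for CNP in the hypertrophic zone (57.3% after median centring). The sign without normalization turned for Mvk (0.0043, mineralized minus hypertrophic), Fdps (0.0017) and Tm7sf2 (0.0276, both mineralized minus resting/proliferating), and, with CNP in the mineralized zone, for Cyp51 (-0.056), Idi1 (-0.199) and Srebf2 (-0.115). Median centring turned Insig2 between the mineralized and hypertrophic zones (-0.017), gave 1 call for CNP in the hypertrophic zone and 5 for the vehicle comparison of the hypertrophic with the resting/proliferating zone, and made 63.5% instead of 51.1% of all calls lower between the mineralized and hypertrophic zones of CNP cultures. Averaging the probe sets of a gene turned the mean CNP difference of Sc5d (-0.0049).

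For CNP in the hypertrophic zone, 0 members were called with the fluidics run as a block, within hybridization day 2 (day 1 holds 1 array a group) and after leaving out 4 arrays whose log was aborted, and 1 when only those groups were fitted. Without the aborted logs the hypertrophic minus resting/proliferating count with CNP was 8, and without the CNP resting/proliferating arrays of replicates 2 and 4, chosen after seeing the data, it was 4. Also chosen after seeing the data, hypertrophic minus resting/proliferating gave 7 calls within hybridization day 1 and 9 in the cultures whose zones shared a fluidics run, as inferred from the log times. Leaving out single arrays or numbers gave 0 to 2 calls for CNP in the hypertrophic zone, 0 to 2 in the resting/proliferating zone and 0 to 1 for its difference between these zones. It gave 15 to 21, 4 to 14 and 6 to 16 calls for hypertrophic minus resting/proliferating in both treatments, vehicle and CNP, and 16 to 24, 14 to 22 and 9 to 20 for mineralized minus resting/proliferating.

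With the replicate number as a block (replicate block) the CNP counts of members stayed at 0, 2, 0 and 0 for the resting/proliferating, hypertrophic and mineralized zones and their mean, while calls over all probe sets went from 7 to 59, 438 to 674, 1 to 2 and 4 to 35. Without the culture block the zone counts were 18, 22 and 22 in both treatments, 9, 20 and 20 in vehicle and 15, 20 and 13 with CNP. Not run were the fluidics block for culture means, single arrays left out of them, and the relabelled array in the mean and zone comparisons.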
